A study of Homo sapiens with 12 samples.

Results

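Genes of the lipid droplet surface and of triglyceride turnover were followed through 12 RNA-seq libraries of human liver spheroid co-cultures. The set was given as 10 gene symbols, PLIN2, PLIN3, PLIN5, CIDEB, CIDEC, DGAT1, DGAT2, PNPLA2, PNPLA3 and HILPDA, and all 10 were found among the 16705 genes of the expression table. Expression was given as FPKM, the fragments of a gene scaled by the length of its transcript and by the mapped fragments of the library. All spheroids combined the line HepG2/C3A, which comes from a liver tumour and stands for hepatocytes, with fewer cells of LX-2, a line that stands for the stellate cells of the liver. They were grown in MEM with 10% fetal bovine serum, which the control spheroids received too. The spheroids were untreated for 24 h, exposed to 1% TPN for 24 h, untreated for 144 h or exposed to 1% TPN for 144 h, with 3 libraries in each group. TPN, total parenteral nutrition, is a clinical infusion mixture that holds amino acids with electrolytes, glucose, lipid emulsion, trace elements and vitamins, so an effect of TPN on a gene cannot be assigned to a single component. Spheroids were pooled for RNA, and both cell types come from single lines. The study's text describes the sequencing data as coming from independent experiments, while the labels give the libraries of a group a replicate number alone.

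Hepatocytes store surplus fatty acids as triglyceride in lipid droplets, which bud from the endoplasmic reticulum and are coated by proteins of the perilipin family. Triglyceride is made by stepwise acylation of glycerol 3-phosphate, with diacylglycerol acyltransferases at the last step, and it is broken down on the droplet by patatin-like lipases whose access and activity depend on perilipins, coactivators and inhibitors. CIDE proteins sit at contacts between droplets, and they serve droplet growth and, in hepatocytes, the lipidation of secreted lipoproteins. The comparisons asked whether the RNA of these genes differed between exposed and untreated spheroids at each exposure time, and whether that difference changed with time.

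From the steps between low FPKM values of short genes, depth was estimated at 1.79e+07 to 1.87e+07 fragments per library. The estimate used GENCODE v44 transcript lengths, from which the authors' reference may differ. Values far from a whole number of steps, with 1 step size for all libraries, were left out. The narrow range therefore cannot show that depth was equal between libraries. The hepatocyte marker ALB was at 3674.08 FPKM or more in every library. Of 11 hepatocyte markers, 10 passed the filter on low expression, and 4 of these fell with TPN at 24 h and 7 at 144 h. In the test described below, 5.46% of all genes tested fell and 5.04% rose at 24 h, and 28.3% fell and 24.2% rose at 144 h. The summed FPKM of the hepatocyte markers ran from 14410 to 14840 in untreated and from 13640 to 13750 in exposed spheroids at 24 h, and from 18250 to 19400 and from 15270 to 16400 at 144 h. Of 14 stellate cell markers, 10 were tested. Against the same shares of all genes, 1 rose and 1 fell with TPN at 24 h. At 144 h 5 fell and 1 rose, with COL1A1 at 1.92 ± 0.40 FPKM untreated and 0.747 ± 0.155 exposed (SD, n = 3). The sum of all 14, most of it LOX and ACTA2, ran from 195.7 to 202.0 untreated and from 187.0 to 192.0 exposed at 24 h, and from 217.6 to 228.4 and from 236.7 to 239.1 at 144 h. DCN, LUM and DES were at or near 0 in every library, at no more than 0.09 FPKM, as was the hepatocyte marker CYP7A1. The stellate cell marker POSTN did not exceed 0.24 FPKM. Of the 3 macrophage markers analysed, CD68 rose at both times (log2 fold change 0.17 and 0.41), CD14 was at -0.40 and -0.08 and not called, and MARCO did not exceed 0.05 FPKM. The 3 endothelial markers summed to at most 0.53, and ADIPOQ, which defines adipocytes, did not exceed 0.01 FPKM. Of the 4 adipocyte markers analysed, PLIN4 alone passed the filter. Their sum ran from 1.64 to 1.69 FPKM untreated and from 1.61 to 1.87 exposed at 24 h. At 144 h it ran from 1.02 to 1.32 untreated and from 2.34 to 2.5 exposed, and PLIN4 rose (log2 fold change 1.07). No macrophages, endothelial cells or adipocytes were seeded, so those markers do not count cells of these types. For the lines seeded, fewer cells and less RNA per cell cannot be told apart in bulk RNA. The part of these marker changes in the results below was not tested.

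The droplet coat genes PLIN2 and PLIN3, the droplet fusion gene CIDEC and the lipase inhibitor HILPDA were higher after 144 h of TPN, whereas CIDEB, the acyltransferases DGAT1 and DGAT2 and the lipases PNPLA2 and PNPLA3 were lower. At 24 h PLIN2 and CIDEC were higher, DGAT2 and CIDEB were lower, and the other 5 genes tested did not pass the test. Expression was compared as log2(FPKM + 0.1) with limma, in 1 model of the 4 groups, over 11713 genes whose FPKM averaged 0.5 or more, and a gene was called at a Benjamini-Hochberg adjusted p below 0.05. Fold changes are on the FPKM + 0.1 scale. PLIN5 was below the filter, which left 9 genes tested.

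At 24 h, 2 of the 9 genes were called higher and 2 lower, where 5.04% and 5.46% of all genes tested were called higher and lower. The threshold of 0.58 on the absolute log2 fold change was passed as well by 0.914% of all genes, but by none of the 9, whose largest value at 24 h was 0.54. At 144 h, 4 were called higher and 5 lower, where 24.2% and 28.3% of all genes were, and 5 of the 9 also passed the fold threshold, against 9.48% of all genes. Of these 5, DGAT2 lay closest to the threshold and was below it with a pseudocount of 1 (log2 fold change -0.56) and without exposed library 2 (-0.55). The exposed and untreated libraries did not overlap in 5 of the 9 genes at 24 h and in 8 of the 9 at 144 h, against 29.9% and 57.3% of all genes. The genes went in both directions, so that their median log2 fold change was close to 0, at -0.02 against -0.0045 for all genes at 24 h and -0.14 against -0.02 at 144 h.

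**Figure D1:**
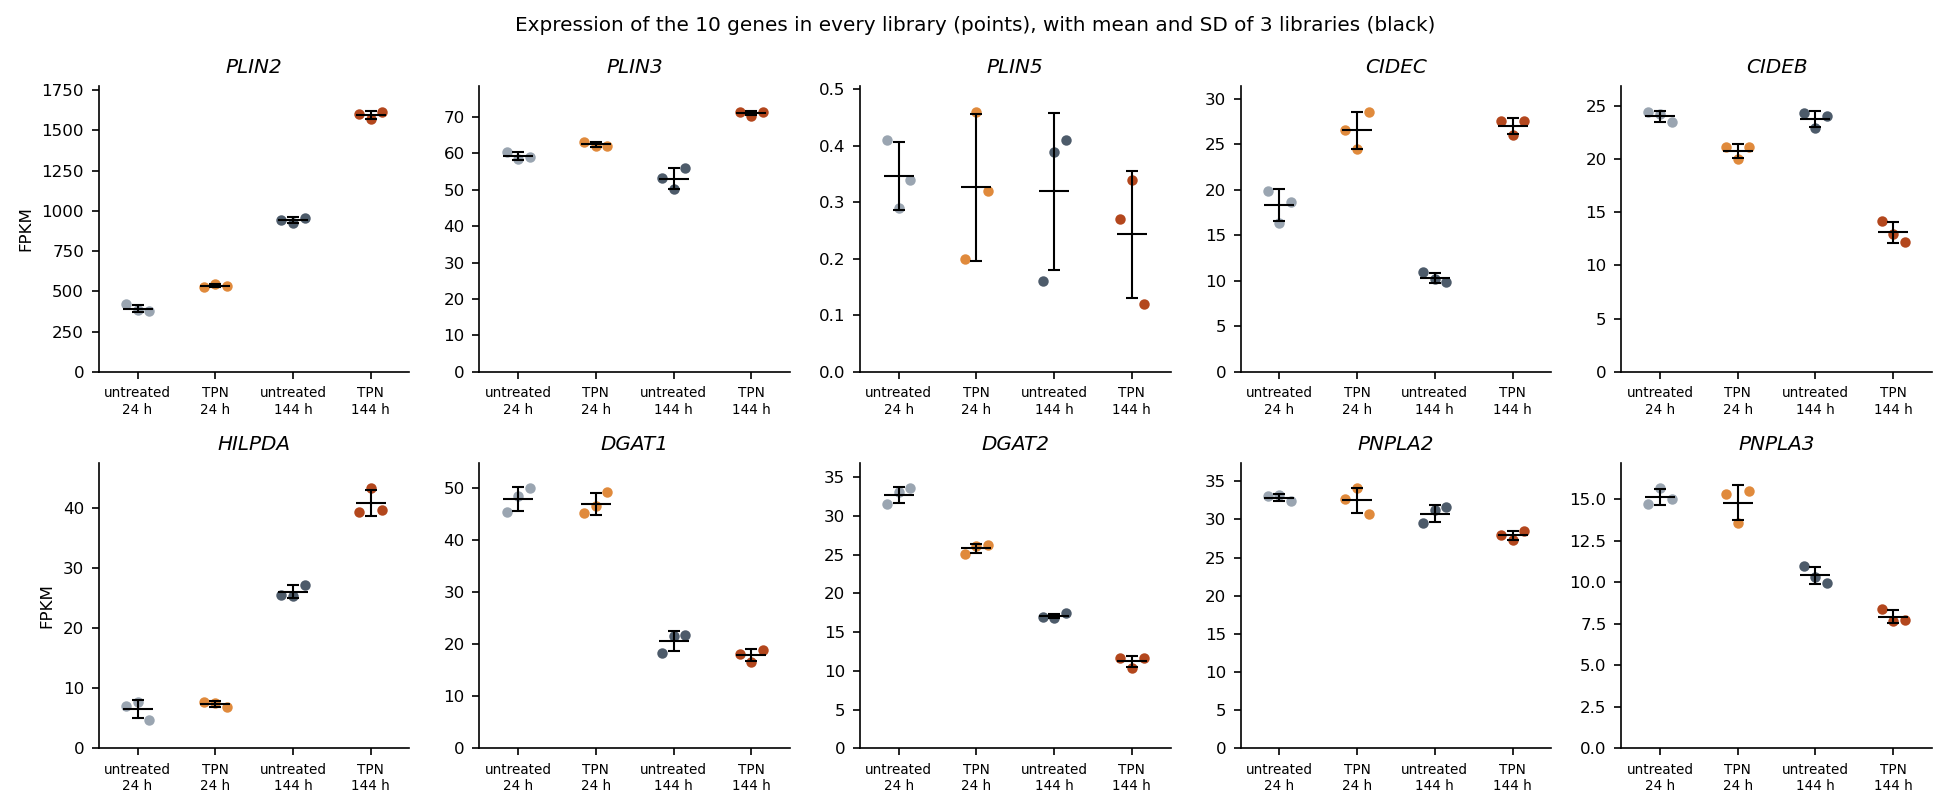
FPKM of the 10 genes in each of the 12 libraries (points, linear axes from 0, a separate scale for each gene), with the mean and SD of the 3 libraries of a group in black. PLIN2 ran from 374.93 to 418.46 FPKM untreated and from 526.25 to 547.78 exposed at 24 h. At 144 h it ran from 926.32 to 958.69 untreated and from 1569.32 to 1614.64 exposed, whereas PLIN5 stayed at or below 0.46 FPKM.

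PLIN2 encodes perilipin 2, the main droplet coat protein of hepatocytes, which is stabilised by binding to droplets and limits the access of lipases. The gene (NCBI gene 123) spans chr9:19108375-19149290 on the minus strand of GRCh38 in GENCODE v44. Since PLIN2 and CIDEC were the 2 of these genes that were higher with TPN at both exposure times, the 250 bases before their transcript starts are shown, from the RefSeq promoter table (GRCh38.p14). That table held promoters for 6 of the 10 genes, 8 in all. Both strands were searched for ACGTG and GCGTG, the core letters of hypoxia response elements, for TGACNNNGC, the core of antioxidant response elements, and for AGGTCA, alone and as the direct repeat with a single base between that PPAR and RXR bind. Matches are in capitals.
PLIN2, chr9:19127493-19127742, minus strand: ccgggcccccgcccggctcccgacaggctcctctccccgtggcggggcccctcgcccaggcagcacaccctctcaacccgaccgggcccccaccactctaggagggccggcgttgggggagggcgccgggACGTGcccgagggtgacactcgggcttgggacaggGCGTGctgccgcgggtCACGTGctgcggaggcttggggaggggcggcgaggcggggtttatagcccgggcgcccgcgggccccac
CIDEC, chr3:9880254-9880503, minus strand: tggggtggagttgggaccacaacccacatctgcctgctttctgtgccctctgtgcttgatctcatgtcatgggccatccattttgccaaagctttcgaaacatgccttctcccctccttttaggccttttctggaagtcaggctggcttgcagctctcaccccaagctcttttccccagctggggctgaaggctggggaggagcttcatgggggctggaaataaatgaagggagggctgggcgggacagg
CIDEC, second start, chr3:9878813-9879062, minus strand: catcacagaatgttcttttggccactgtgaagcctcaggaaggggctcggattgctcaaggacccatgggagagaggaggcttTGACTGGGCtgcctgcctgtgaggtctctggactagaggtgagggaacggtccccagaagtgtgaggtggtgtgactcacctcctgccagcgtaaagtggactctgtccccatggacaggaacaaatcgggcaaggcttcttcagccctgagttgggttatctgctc
The PLIN2 sequence held 3 matches of ACGTG, 2 of which overlap on opposite strands in CACGTG, and 1 match of GCGTG. Among 35116 promoter windows of the same length, 18.5% held ACGTG and 32.2% held GCGTG. The sequence before the second CIDEC start held 1 match of TGACNNNGC, which was present in 10.9% of all windows, and the one before the first start held none of the motifs. AGGTCA was in 12.1% of all windows and the direct repeat in 0.0171%, and neither was in the sequences shown. Of the other promoters searched, GCGTG had 3 matches in PLIN3, 2 in PLIN5 and 1 before a CIDEB start. TGACNNNGC had 1 match in PLIN3 and AGGTCA 1 in PNPLA2, while ACGTG and the direct repeat had none. A match of letters describes the sequence and is not a measured binding site.

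In the untreated libraries at 24 h, PLIN2 was at 418.46, 385.19 and 374.93 FPKM, and in the exposed libraries at 526.25, 547.78 and 533.55. At 144 h PLIN2 was at 946.41, 926.32 and 958.69 FPKM untreated and at 1602.09, 1569.32 and 1614.64 exposed. Every exposed library was above every untreated library of its time, and the untreated libraries at 144 h were above the exposed ones at 24 h. The increase with TPN was 1.37-fold at 24 h (log2 fold change 0.45 ± 0.04 SE, limma adjusted p = 2.22e-06) and 1.69-fold at 144 h (0.76 ± 0.04, limma adjusted p = 1.64e-09). By FPKM among the 16705 genes, PLIN2 ranked between 183 and 199 in the untreated and between 145 and 151 in the exposed libraries at 24 h. At 144 h it ranked between 95 and 96 in the untreated and between 59 and 61 in the exposed libraries.

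PLIN3 encodes a perilipin that is largely cytosolic and moves to newly formed droplets (NCBI gene 10226, chr19:4838341-4867694, minus strand). It was at 60.43, 58.40 and 59.05 FPKM untreated and 63.20, 62.08 and 62.06 exposed at 24 h. Values at 144 h were 53.19, 50.12 and 55.84 FPKM untreated and 71.31, 70.27 and 71.25 exposed. The groups did not overlap at either time, but the difference at 24 h was small, with a log2 fold change of 0.07 (95% interval -0.0011 to 0.15, limma adjusted p = 0.217). At 144 h PLIN3 rose 1.34-fold (log2 fold change 0.42 ± 0.04 SE, limma adjusted p = 3.69e-07).

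PLIN5, a perilipin of tissues that oxidise fatty acids, which ties droplets to mitochondria, was close to the limit of detection (NCBI gene 440503, chr19:4522531-4535224, minus strand). Its FPKM was 0.41, 0.29 and 0.34 untreated and 0.20, 0.46 and 0.32 exposed at 24 h, and 0.16, 0.39 and 0.41 untreated and 0.27, 0.34 and 0.12 exposed at 144 h. These values correspond to an estimated 4.8 to 18.4 fragments per library, and the groups overlapped at both times. Without the filter its log2 fold change was -0.10 (95% interval -0.81 to 0.60) at 24 h and -0.29 (-0.99 to 0.42) at 144 h. Changes in either direction within these bounds therefore remained compatible with the values. Among the 3 perilipins of the set, PLIN2 took 86.8% ± 0.49 of the summed FPKM untreated and 89.5% ± 0.25 exposed at 24 h, and 94.7% ± 0.19 and 95.7% ± 0.04 at 144 h (SD, n = 3). The exposed libraries were above the untreated ones at both times, with p = 0.1 in the two-sided exact permutation test, the smallest p that 3 against 3 libraries allow.

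The pair of CIDE genes went in opposite directions. CIDEC, whose protein gathers at contacts between droplets and lets lipid pass from the smaller to the larger one (NCBI gene 63924, chr3:9866711-9880255, minus strand), was at 19.84, 16.37 and 18.68 FPKM untreated and 26.62, 24.50 and 28.56 exposed at 24 h. At 144 h CIDEC was at 10.94, 10.18 and 9.92 FPKM untreated and 27.57, 26.01 and 27.52 exposed. The exposed groups lay above the untreated groups at both times, while the exposed libraries of 24 h and 144 h overlapped. CIDEC rose 1.45-fold at 24 h (log2 fold change 0.54 ± 0.07 SE, limma adjusted p = 0.000212) and 2.60-fold at 144 h (1.38 ± 0.07, limma adjusted p = 2.88e-09), which was the largest log2 fold change of the 9 genes at each time.

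CIDEB, the CIDE gene of hepatocytes, whose protein takes part in loading triglyceride onto very low density lipoprotein (NCBI gene 27141, chr14:24305187-24311430, minus strand), was at 24.42, 24.20 and 23.44 FPKM untreated and 21.17, 20.02 and 21.10 exposed at 24 h. CIDEB at 144 h was at 24.36, 22.90 and 24.08 FPKM untreated and 14.17, 12.97 and 12.24 exposed. Every exposed library was below every untreated library of its time. CIDEB fell 1.16-fold at 24 h (log2 fold change -0.21 ± 0.05 SE, limma adjusted p = 0.0154) and 1.81-fold at 144 h (-0.85 ± 0.05, limma adjusted p = 1.16e-08). This call at 24 h did not hold without untreated library 1, untreated library 2 or exposed library 2 (limma adjusted p = 0.0576, 0.0525 and 0.0666). The annotated CIDEB gene overlaps NOP9 and LTB4R2 on the other strand, the libraries were made with a strand-specific kit, and whether counting used the strand is not stated.

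As a ratio of FPKM within each library, CIDEC over CIDEB was 0.812, 0.676 and 0.797 untreated and 1.26, 1.22 and 1.35 exposed at 24 h, and 0.449, 0.445 and 0.412 untreated and 1.95, 2.01 and 2.25 exposed at 144 h. CIDEB was thus the more abundant of the pair, per length of transcript, in all 6 untreated libraries, and CIDEC in all 6 exposed libraries. The exact permutation test (two-sided) gave p = 0.1 at each time, the smallest possible.

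DGAT1 and DGAT2 encode enzymes of unrelated sequence that both add the last fatty acid to diacylglycerol, DGAT1 in the endoplasmic reticulum and DGAT2 there and on the droplet surface. DGAT1 (NCBI gene 8694) was at 45.42, 48.47 and 49.99 FPKM untreated and 45.18, 46.61 and 49.24 exposed at 24 h, and at 18.37, 21.66 and 21.80 untreated and 18.19, 16.64 and 18.97 exposed at 144 h. The groups overlapped at both times, and the levels at 144 h were below those at 24 h in every library. At 24 h the log2 fold change of DGAT1 was -0.03 (95% interval -0.17 to 0.12, limma adjusted p = 0.851). At 144 h it was -0.20 ± 0.07 SE (limma adjusted p = 0.0234), but the call was lost without untreated library 2 or 3 or exposed library 2 (limma adjusted p = 0.0929, 0.0964 and 0.107). The annotated DGAT1 gene overlaps HSF1 on the other strand.

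DGAT2 (NCBI gene 84649, chr11:75759512-75801535, plus strand) was at 31.50, 33.08 and 33.55 FPKM untreated and 25.13, 26.11 and 26.25 exposed at 24 h. Values at 144 h were 16.94, 16.89 and 17.41 FPKM untreated and 11.67, 10.43 and 11.61 exposed. Each exposed group was below the untreated group of its time without overlap. The decrease was 1.27-fold at 24 h (log2 fold change -0.34 ± 0.05 SE, limma adjusted p = 0.000293) and 1.52-fold at 144 h (-0.60 ± 0.05, limma adjusted p = 1.36e-07). DGAT2 over DGAT1 went from 0.682 ± 0.011 untreated to 0.550 ± 0.015 exposed at 24 h, and from 0.834 ± 0.077 to 0.627 ± 0.015 at 144 h (SD, n = 3), with no overlap at either time (exact permutation test, two-sided, p = 0.1, the smallest possible). DGAT2 was therefore lower relative to DGAT1 within each exposed library, also at 24 h where DGAT1 itself did not pass the test.

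PNPLA2 encodes adipose triglyceride lipase, which removes the first fatty acid from triglyceride (NCBI gene 57104, chr11:818914-825573, plus strand). Its FPKM was 33.01, 33.18 and 32.38 untreated and 32.71, 34.06 and 30.75 exposed at 24 h, and 29.47, 31.18 and 31.68 untreated and 27.94, 27.29 and 28.53 exposed at 144 h. The groups overlapped at 24 h, where the log2 fold change was -0.02 (95% interval -0.10 to 0.07, limma adjusted p = 0.858). At 144 h the exposed libraries were below the untreated ones, and PNPLA2 fell 1.10-fold (log2 fold change -0.14 ± 0.04 SE, limma adjusted p = 0.0109), the smallest change among the 9 genes at that time.

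PNPLA3, a related droplet protein of hepatocytes known for its link to fatty liver disease (NCBI gene 80339, chr22:43923792-43964488, plus strand), was at 14.75, 15.66 and 15.03 FPKM untreated and 15.33, 13.58 and 15.49 exposed at 24 h. At 144 h it was at 10.98, 10.35 and 9.98 FPKM untreated and 8.37, 7.68 and 7.76 exposed. The groups overlapped at 24 h (log2 fold change -0.04, 95% interval -0.16 to 0.09, limma adjusted p = 0.785) and were apart at 144 h, when PNPLA3 fell 1.31-fold (-0.39 ± 0.06 SE, limma adjusted p = 7.83e-05). PNPLA3 over PNPLA2 was 0.461 ± 0.013 untreated and 0.457 ± 0.053 exposed at 24 h (exact permutation test, two-sided, p = 0.9). At 144 h this ratio was 0.340 ± 0.030 untreated and 0.284 ± 0.014 exposed (SD, n = 3), with no overlap and the smallest possible exact p of 0.1. In the annotation PNPLA3 overlaps SAMM50 on the same strand.

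HILPDA encodes a small droplet protein that binds and inhibits adipose triglyceride lipase, and it is known as a gene induced by hypoxia and by fatty acids (NCBI gene 29923, chr7:128455849-128458418, plus strand). It was at 6.99, 7.79 and 4.79 FPKM untreated and 7.77, 7.47 and 6.87 exposed at 24 h, and at 25.59, 25.31 and 27.26 untreated and 39.40, 43.25 and 39.62 exposed at 144 h. The groups overlapped at 24 h, with untreated library 3 the lowest, and were apart at 144 h. The log2 fold change at 24 h was 0.20 (95% interval -0.07 to 0.47, limma adjusted p = 0.368) and turned to -0.0036 without untreated library 3. At 144 h HILPDA rose 1.56-fold (0.64 ± 0.13 SE, limma adjusted p = 0.000732). The lipase and its inhibitor thus moved in opposite directions at 144 h, PNPLA2 by far less than HILPDA.

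**Figure D2:**
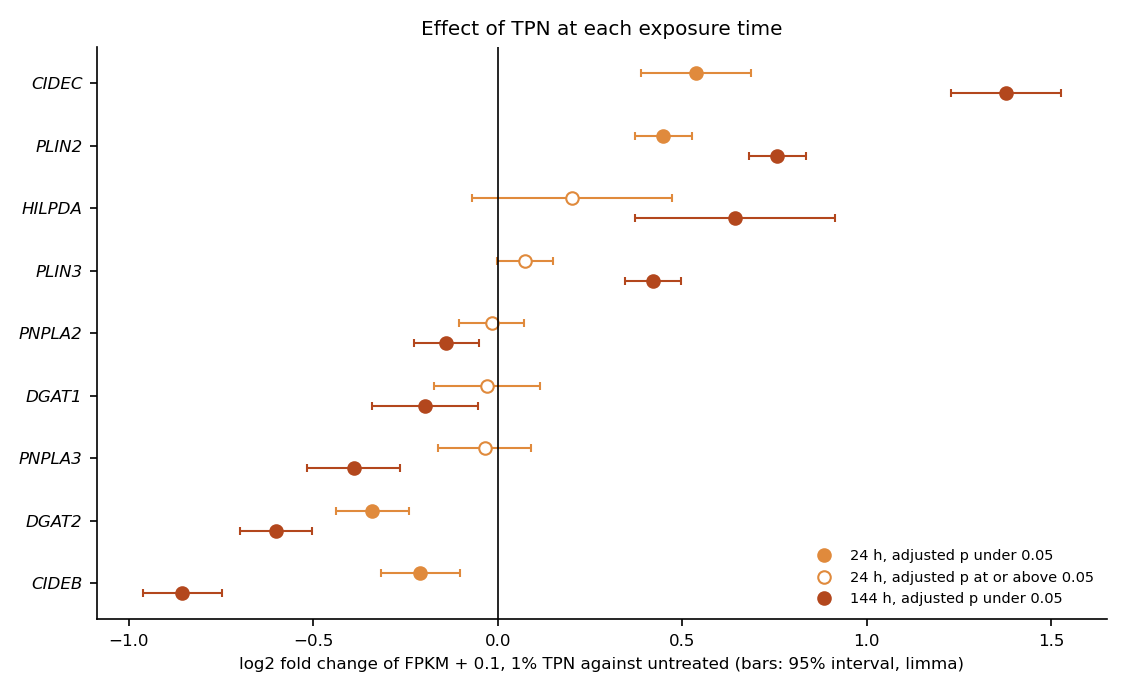
Log2 fold change of FPKM + 0.1 in exposed against untreated spheroids at 24 h (light) and 144 h (dark) for the 9 genes tested, with 95% intervals from limma, where open points did not reach an adjusted p under 0.05. The changes at 144 h ran from -0.85 for CIDEB to 1.38 for CIDEC, and each lay farther from 0 than the change of the same gene at 24 h.

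Whether the effect of TPN differed between the exposure times was tested as the difference between the log2 fold changes at 144 h and 24 h. It was positive and called for PLIN2, PLIN3 and CIDEC and negative and called for CIDEB, DGAT2 and PNPLA3, so 3 of the 9 genes were called in each direction, where 14.1% and 16.3% of all genes were. The difference was largest for CIDEC (0.84 ± 0.10 SE, limma adjusted p = 3.76e-05) and CIDEB (-0.64 ± 0.07, limma adjusted p = 2.26e-05), the 2 of the 9 that also passed the threshold of 0.58, against 5.87% of all genes. CIDEC was at 26.6 FPKM at 24 h and 27.0 at 144 h in exposed spheroids, and at 18.3 and 10.4 in untreated ones. For PLIN2 the difference between the times was 0.31 ± 0.05, and under quantile normalization it shrank to 0.11 and was no longer called (limma adjusted p = 0.0981). For HILPDA it was 0.44 (95% interval 0.06 to 0.83) with a limma adjusted p of 0.0765, and it was called with a pseudocount of 1 (0.45, limma adjusted p = 0.0424) and without untreated library 3 of 24 h (0.65, limma adjusted p = 0.000241). For DGAT1 and PNPLA2 it was -0.17 and -0.12 and not called, with intervals that ended just above 0, at 0.03 and 0.0013. Without untreated library 1 of 144 h the difference for DGAT1 was called (-0.25, limma adjusted p = 0.0309), and without exposed library 3 of 24 h that for PNPLA2 was (-0.16, limma adjusted p = 0.0432).

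The same genes also differed between untreated spheroids of 144 h and 24 h, which share the untreated libraries with the comparisons above. HILPDA was 4.03-fold higher (log2 fold change 2.01 ± 0.13 SE, limma adjusted p = 7.51e-09) and PLIN2 2.40-fold higher at 144 h (1.27 ± 0.04, limma adjusted p = 5.21e-12). DGAT1 was 2.33-fold lower (-1.22 ± 0.07, limma adjusted p = 2.06e-09), DGAT2 1.91-fold lower (-0.93 ± 0.05, limma adjusted p = 6.64e-10), CIDEC 1.76-fold lower (-0.81 ± 0.07, limma adjusted p = 1.63e-07) and PNPLA3 1.45-fold lower (-0.53 ± 0.06, limma adjusted p = 1.77e-06). In all, 2 of the 9 genes were called higher and 5 lower, where 20.1% and 52.4% of all genes were, and 5 also passed the fold threshold, against 19.0% of all genes. The median of all genes was -0.18 in this comparison and moved to -0.0074 with median ratio scaling, which gave 33.2% called higher and 33.7% lower. PLIN3, the fifth gene called lower, was at -0.16 and thus near that median, and it turned to 0.02 with median ratio scaling. CIDEB and PNPLA2, at -0.01 and -0.09 and not called (limma adjusted p = 0.801 and 0.0506), turned to 0.16 and 0.08. In 6 of 21 alternative fits PNPLA2 was instead called lower. With time in culture, 8 of the 10 stellate cell markers tested fell, and COL1A1 went from 15.1 ± 1.1 to 1.92 ± 0.40 FPKM (SD, n = 3), while 4 of the 10 hepatocyte markers rose and 4 fell.

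Set side by side, PLIN2 and HILPDA were higher with time in untreated spheroids and higher again with 144 h of TPN, and DGAT1, DGAT2 and PNPLA3 were lower with time and lower again with TPN. CIDEC alone of the genes called in both comparisons at these thresholds, apart from PLIN3 whose change with time depended on the scaling, went down with time and up with TPN. For CIDEC, the exposed spheroids of 144 h were at 27.0 ± 0.9 FPKM, above the untreated spheroids of 24 h at 18.3 ± 1.8 as well as those of 144 h at 10.4 ± 0.5 (SD, n = 3). For DGAT1 the difference with time was far larger than that with TPN, at 48.0 ± 2.3 against 20.6 ± 1.9 FPKM in untreated spheroids.

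By level, PLIN2 was the highest of the 10 genes in all 4 groups, PLIN3 the second and PLIN5 the last. In untreated spheroids at 24 h the order after PLIN3 was DGAT1, PNPLA2, DGAT2, CIDEB, CIDEC, PNPLA3 and HILPDA, and only the neighbours PNPLA2 and DGAT2 overlapped between libraries. In exposed spheroids at 144 h it was HILPDA, PNPLA2, CIDEC, DGAT1, CIDEB, DGAT2 and PNPLA3, and only PNPLA2 and CIDEC overlapped. HILPDA thus stood ninth of the 10 in the former group, at 6.52 ± 1.55 FPKM, and behind only PLIN2 and PLIN3 in the latter, at 40.8 ± 2.2 FPKM (SD, n = 3). Exposed spheroids at 24 h kept the order of their controls except that CIDEC came before DGAT2 and CIDEB, with CIDEC and DGAT2 overlapping. In untreated spheroids at 144 h PNPLA2, HILPDA, CIDEB, DGAT1, DGAT2, PNPLA3 and CIDEC followed PLIN3, with PNPLA3 and CIDEC overlapping.

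**Figure D3:**
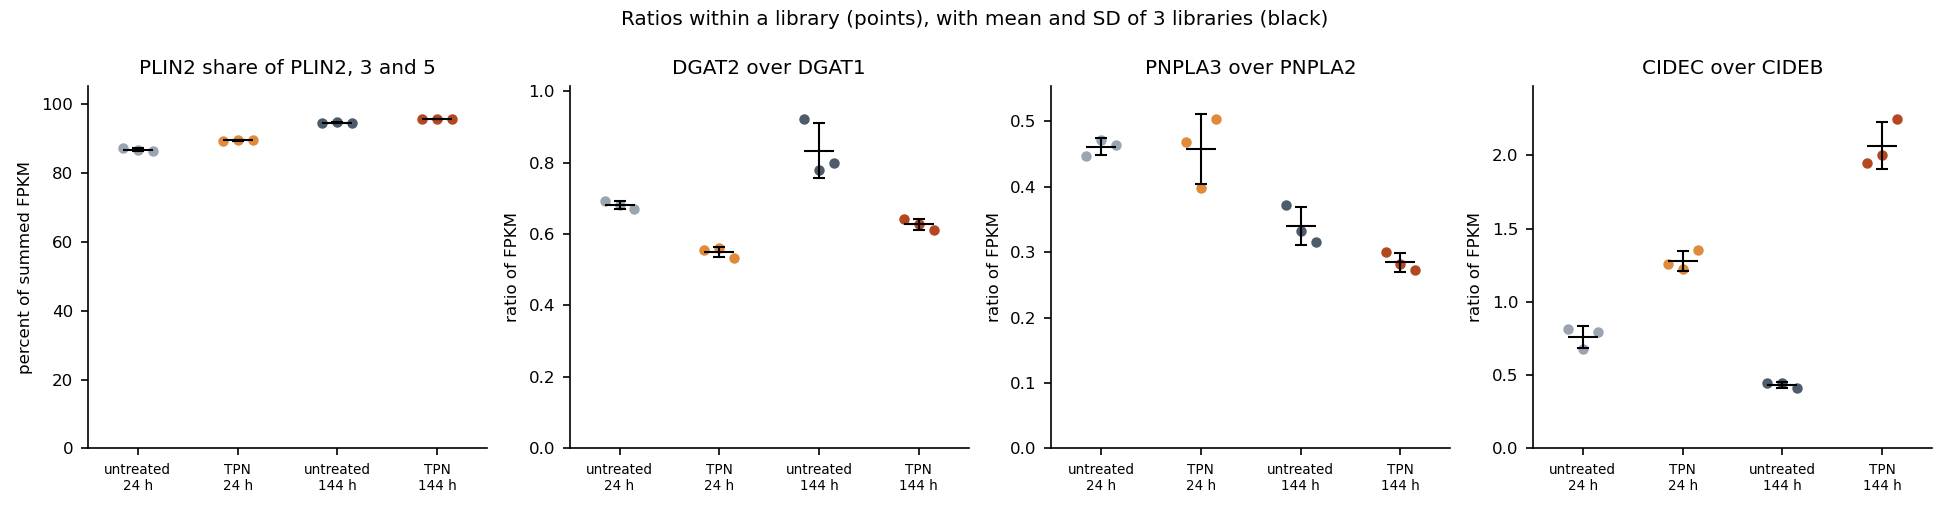
Ratios of FPKM between members of a pair or family in each of the 12 libraries (points), with the mean and SD of 3 libraries in black and axes from 0. CIDEC over CIDEB separated all exposed from all untreated libraries, from 0.412 to 0.812 untreated and from 1.22 to 2.25 exposed, whereas PNPLA3 over PNPLA2 overlapped at 24 h.

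The neighbouring steps of the pathway were described with 4 further lists, 48 genes in all, of which 39 were tested. The lists were chosen with earlier results of these data known. At 24 h 3 of these genes rose and 6 fell with TPN, where 5.04% and 5.46% of all genes tested did. At 144 h 19 rose and 13 fell, where 24.2% and 28.3% of all genes did. The difference between the times was called positive in 15 and negative in 6, against 14.1% and 16.3% of all genes. With time in untreated spheroids 12 rose and 18 fell, against 20.1% and 52.4% of all genes.

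In the glycerolipid synthesis list, 7 of 13 genes tested rose and 5 fell at 144 h, where 24.2% and 28.3% of all genes did. The median log2 fold change of the list was 0.21. GPAT3, an acyltransferase of the endoplasmic reticulum that adds the first fatty acid to glycerol 3-phosphate, was at 5.11, 5.41 and 5.37 FPKM untreated and 11.23, 12.32 and 11.33 exposed at 24 h, and at 6.42, 5.77 and 6.98 untreated and 25.29, 26.01 and 27.32 exposed at 144 h. The exposed libraries were above the untreated ones at both times, by 2.17-fold at 24 h (log2 fold change 1.12 ± 0.06 SE, limma adjusted p = 7.4e-08) and 4.06-fold at 144 h (2.02 ± 0.06, limma adjusted p = 3.51e-11). GPAM, the mitochondrial enzyme of the same step and the more abundant gene, fell from 66.1 ± 1.7 to 58.4 ± 2.0 FPKM at 24 h (SD, n = 3; log2 fold change -0.18, limma adjusted p = 0.00722) and from 38.4 ± 0.3 to 32.6 ± 1.5 at 144 h (-0.24, limma adjusted p = 0.000126). GPAT4, a further enzyme of this step, was at 0.06 and not called at 24 h and rose at 144 h (0.33, limma adjusted p = 5.92e-05). AGPAT2, of the second acylation, rose by a log2 fold change of 0.44 and LPIN3, a phosphatidate phosphatase, by 0.39, whereas AGPAT3 was at -0.34 and the monoacylglycerol acyltransferases MOGAT2 and MOGAT3 were at -0.47 and -0.46, all called at 144 h. The genes of the first acylation therefore differed in direction among themselves, GPAT3 higher and GPAM lower at both exposure times.

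In the list of other droplet coat and biogenesis genes, 7 of 14 tested rose and 4 fell at 144 h, where 24.2% and 28.3% of all genes did. The median log2 fold change of the list was 0.06. PLIN4, a perilipin best known from adipocytes, was between 0.95 and 1.06 FPKM untreated and between 2.09 and 2.26 exposed at 144 h (log2 fold change 1.07 ± 0.11 SE, limma adjusted p = 2.11e-06). LDAF1, a partner of seipin in droplet assembly, was between 1.64 and 2.45 FPKM untreated and between 3.87 and 6.02 exposed (1.16 ± 0.18, limma adjusted p = 9.89e-05), with both genes at low levels. Neither gene's groups overlapped at 144 h. METTL7A, a droplet-associated protein, fell at both times, from 58.4 ± 0.7 to 45.8 ± 1.3 FPKM at 24 h and from 48.7 ± 1.0 to 26.7 ± 1.3 at 144 h (SD, n = 3; log2 fold change at 144 h -0.87 ± 0.04 SE, limma adjusted p = 6.6e-10). FITM1, of a family that helps droplets bud, and LDAH, a droplet hydrolase, fell at 144 h (-0.41 and -0.25). FITM2, of the same family as FITM1, rose at 144 h (0.22, limma adjusted p = 0.000772). It was the more abundant of the 2, at 8.57 against 4.63 FPKM in exposed spheroids at 144 h. PCYT1A, which makes phosphatidylcholine for the droplet surface, rose at both times (0.29 and 0.30), and seipin itself, BSCL2, rose at 144 h (0.28, limma adjusted p = 0.00916).

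In the list of other lipolysis genes, 5 of 9 tested rose and 2 fell at 144 h, where 24.2% and 28.3% of all genes did. The median log2 fold change of the list was 0.20. CES1, the main carboxylesterase of the liver, was at 4.91, 5.85 and 4.13 FPKM untreated and 16.81, 16.48 and 17.76 exposed at 144 h, without overlap (3.41-fold, log2 fold change 1.77 ± 0.11 SE, limma adjusted p = 1.66e-08), and it also rose at 24 h (0.40, limma adjusted p = 0.0288). AADAC, a related esterase of low level, was between 0.75 and 0.96 FPKM untreated and between 1.94 and 2.35 exposed at 144 h and rose (1.31 ± 0.13, limma adjusted p = 2.4e-06). LIPA, the acid lipase of lysosomes, and ABHD5, the coactivator of adipose triglyceride lipase, rose at 144 h by log2 fold changes of 0.52 and 0.41, and the carboxylesterases CES2 and CES3 fell (-0.12 and -0.27). In these spheroids CES2 was the most abundant of the carboxylesterases named, with means of 51.31 FPKM untreated and 47.25 exposed at 144 h. The genes that rose at 144 h thus included the coactivator and the inhibitor of PNPLA2, while PNPLA2 itself was slightly lower. The coactivator ABHD5 was at a low level, 2.83 ± 0.49 FPKM untreated and 3.77 ± 0.20 exposed at 144 h (SD, n = 3; limma adjusted p = 0.0135). The remaining genes G0S2, another inhibitor of PNPLA2, and LIPE and MGLL, lipases of the later steps, were below the filter, with at most 0.36 FPKM in any library.

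Of the 3 genes for the esters of cholesterol, the other neutral lipid of droplets, 2 fell at 144 h, against 28.3% of all genes. SOAT2, the sterol acyltransferase typical of hepatocytes, was at 39.74, 39.57 and 38.69 FPKM untreated and 20.68, 16.89 and 19.74 exposed (log2 fold change -1.04 ± 0.06 SE, limma adjusted p = 4.82e-09), while at 24 h it was at 0.10 and not called. SOAT1 fell by 0.37 on the log2 scale.

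**Figure D4:**
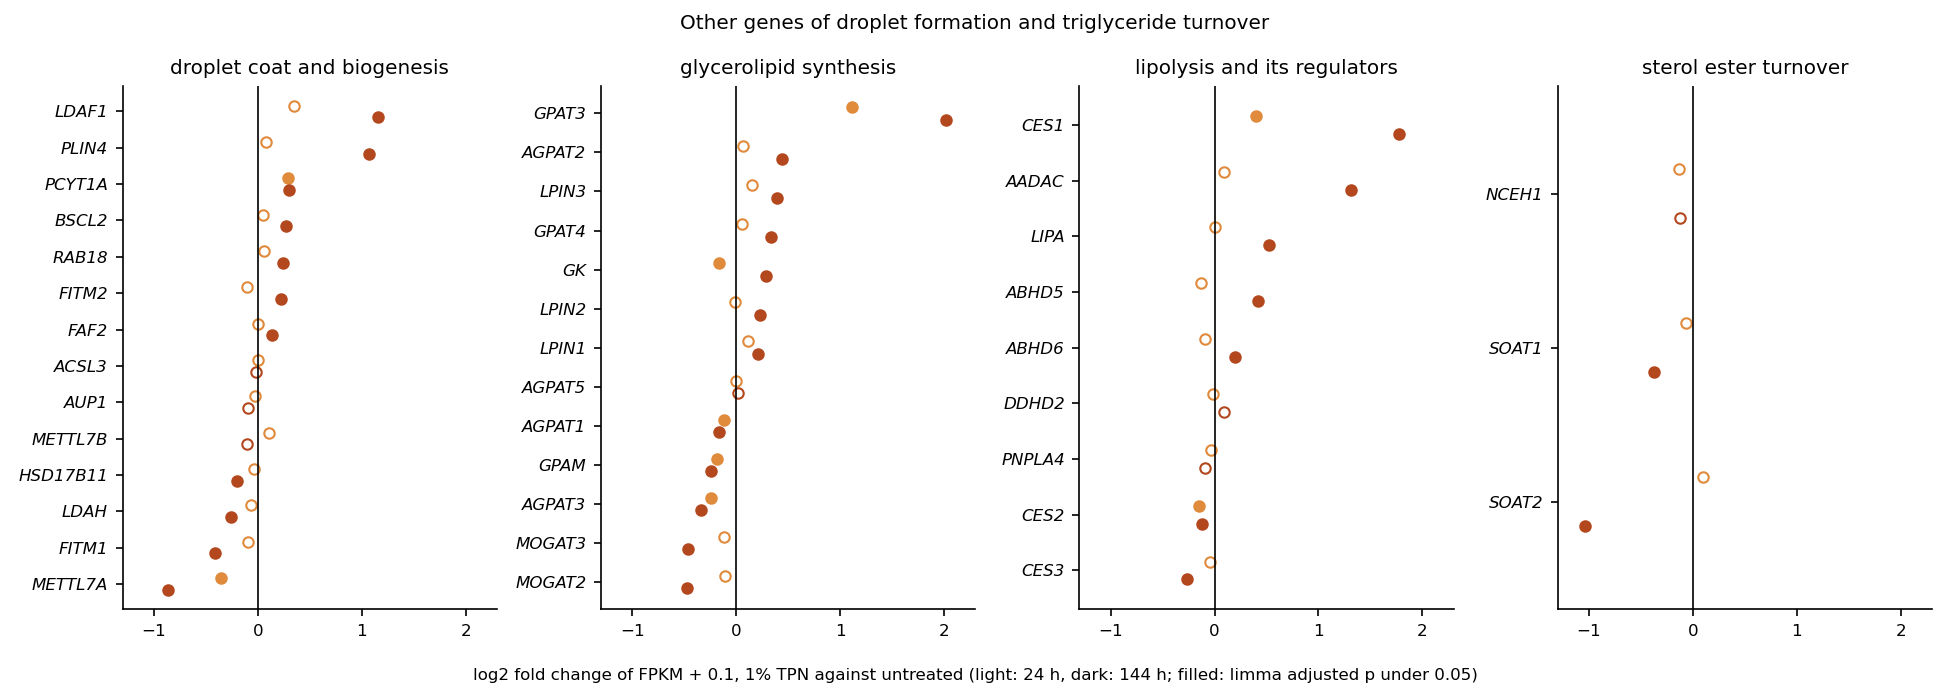
Log2 fold change of FPKM + 0.1 with TPN at 24 h (light) and 144 h (dark) for the 39 other pathway genes tested, in their 4 lists, where filled points had a limma adjusted p under 0.05. At 144 h GPAT3 (2.02) and CES1 (1.77) lay farthest to the right and SOAT2 (-1.04) and METTL7A (-0.87) farthest to the left.

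Genes with the most similar profile were found by Pearson correlation of log2(FPKM + 0.1) over the 12 libraries, which share the 4 groups and their large differences, so high values were common. PLIN2 was most like GNA13, CEBPB and GLRX (r = 0.996, 0.995 and 0.995), and 497 genes were above 0.95. HILPDA was most like IGFBP3, ANGPTL4 and FAM162A (r of 0.995 for each), with 636 genes above 0.95. Fewer genes followed the opposed pair, 47 for CIDEC, led by ABCC3, PALS2 and NRCAM (0.986, 0.984 and 0.982), and 68 for CIDEB, led by MPC1, NAALADL1 and SELENOP (0.991, 0.988 and 0.984). DGAT1, DGAT2 and PNPLA3 had 1621, 1306 and 1340 such genes, and were led by DUS1L, MTARC1 and SNRNP48 (0.999, 0.997 and 0.994). PLIN3 and PNPLA2 had 29 and 11, led by LHFPL2 and CMSS1 (0.983 and 0.973).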

How the data were processed

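RNA of 12 libraries was sequenced by the authors from strand-specific libraries. They filtered reads with SOAPnuke, mapped them with HISAT2 2.0.4 to GRCh38.p13 and with Bowtie2 2.2.5 to reference transcripts, and deposited FPKM values from RSEM, rounded to 2 decimals. FPKM scales with the sum over all genes of a library, so a strong rise of a few genes lowers the rest. Read counts were not used here. The table held 16705 genes, after 20 lines without a gene were dropped, and FPKM sums ran from 561657 to 583722.

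FPKM was analysed as log2(FPKM + 0.1) in R 4.3.3 with limma 3.58.1, where 1 model held the 4 groups and eBayes used an intensity trend, over the 11713 genes that averaged 0.5 FPKM or more. Contrasts were TPN against untreated at 24 h and 144 h, the difference of these, and untreated 144 h against 24 h, each with Benjamini-Hochberg adjustment over all genes tested. Ratios were compared with two-sided exact permutation tests. All 10 genes are described. Other genes were named from lists, where they passed both thresholds with TPN or were among up to 3 with the largest called change in each direction at 144 h. GPAM, GPAT4, FITM2, BSCL2, ABHD5, G0S2, LIPE and MGLL are outside that rule and were named after their values were seen. Profiles were compared by Pearson correlation, naming up to 3 genes. The members and lists were chosen with earlier results of these data known. Gene coordinates are from GENCODE v44, and overlapping genes share them. Alternatives changed the pseudocount (1 or 0.01), filter, scaling, trend, libraries in the model and threshold, added a replicate block, or left out each library in turn. Tables were made in Python 3.11.15 (pandas 2.3.3, numpy 2.4.6, scipy 1.17.1) and plots with matplotlib 3.10.9.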

Additional observations from a re-analysis of the deposited data

Results flagged for a closer look

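For 6 of the 9 genes tested, the effect of TPN differed between the exposure times by the test of the difference itself (limma, adjusted p below 0.05 over all genes tested). Among all genes, 14.1% were called positive and 16.3% negative in that test. Subtracting the log2 fold change of 24 h from that of 144 h gave 0.31 for PLIN2, 0.35 for PLIN3 and 0.84 for CIDEC. It gave -0.64 for CIDEB, -0.26 for DGAT2 and -0.36 for PNPLA3. Of these, the difference for PLIN2 was not called under quantile normalization.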

How the results depend on the processing

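The number of the 9 genes called was 4 at 24 h, 9 at 144 h, 6 for the difference between the times and 7 for time in untreated spheroids. Of all 11713 genes tested, 1230, 6144, 3565 and 8498 were called in these comparisons. With an absolute log2 fold change above 0.58 also required, 0, 5, 2 and 5 of the 9 genes remained. The shares of all genes were then 0.914%, 9.48%, 5.87% and 19.0%. Of 747 comparisons of a value with its alternative, 719 kept their direction and side of the threshold, 7 lost the call, 10 gained it and 11 changed sign. The changes of sign at 24 h were of genes that were not called, in the fits without one library. They ranged from -0.067 to 0.0018 for DGAT1, from -0.051 to 0.023 for PNPLA2, from -0.069 to 0.025 for PNPLA3 and from -0.0036 to 0.34 for HILPDA. For time in untreated spheroids, median ratio scaling and quantile normalization gave 0.016 and 0.011 for PLIN3, 0.16 and 0.13 for CIDEB (limma adjusted p = 0.00962 and 0.0344) and 0.083 and 0.076 for PNPLA2, and fits without one library gave -0.032 to 0.012 for CIDEB. PNPLA2 kept its sign and gained the call as lower with time in 6 of 21 alternatives. With the replicate number of the labels as a block, the counts stayed at 4, 9, 6 and 7. The labels do not say what a number marks. Deviations from the group means correlated between same-numbered untreated and exposed libraries at 0.09, -0.08 and 0.10 at 24 h and 0.02, -0.01 and 0.06 at 144 h for numbers 1, 2 and 3, and between the times at 0.09, 0.02 and 0.15 untreated and 0.09, -0.01 and 0.14 exposed. Numbers 1 and 3 were thus positive in all 4 pairs of groups. Number 1 against number 3 was negative in each, down to -0.16, which follows in part because the 3 deviations of a group sum to 0. However, number 2 was near or below 0, and untreated library 2 of 24 h correlated best with exposed library 1 (0.08). The numbers were not taken to pair the libraries. Depth limits PLIN5, at 4.8 to 18.4 fragments per library, while HILPDA rested on at least 94.4.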
